A study of Homo sapiens with 6 samples.

Results

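ATP-binding cassette (ABC) transporters were followed in melanoma cells sorted by CD20, a membrane protein of B cells whose gene is MS4A1. Members were the protein-coding genes whose GENCODE release 29 symbol is ABC, a letter from A to G and a number, with ABCB5 left out. This gave 44 genes, each of which had a row in the deposited table of 58395 genes. The 6 libraries came from M14, an established human melanoma line, grown without attachment as spheres (melanospheres). Spheres were dissociated mechanically and stained for CD20, and flow sorting gave 3 CD20+ and 3 CD20- libraries of polyadenylated RNA. The labels name no drug or genetic change, and do not say whether the replicates were separate cultures, so p-values cover only how these samples vary, and that variation may be technical.

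ABC proteins bind and split ATP in a conserved cassette, and most use it to move lipids, sterols, drugs, bile salts or metabolites across a membrane. Subfamilies A and G handle mainly lipids and sterols, C exports organic anions and conjugates, D serves peroxisomes and lysosomes, and B is mixed, with members at the cell surface and in mitochondria. Subfamilies E and F lack membrane domains and act on ribosomes and translation. In tumours the family is best known for the drug efflux pumps ABCB1, ABCC1 and ABCG2.

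Levels are in FPKM, a fragment count divided by exon length and a library size, and libraries held 15651172 to 17915936 fragments. The library size that the values imply was not this fragment total. It was 15107847 in CD20+ replicate 1, which held 17479732 fragments, and 19782432 in CD20- replicate 3, which held 17915936. The deposited values may thus already be scaled between libraries. MS4A1 measured 1.24, 0.966 and 1.28 FPKM in the CD20+ libraries of replicates 1, 2 and 3 and 0.225, 0.263 and 0.403 FPKM in the CD20- libraries, a 3.91-fold ratio without overlap (exact permutation test, two-sided p = 0.1, the lowest possible with 3 libraries a group). Mitochondrially encoded genes took 39.3 to 52.3% of the FPKM in CD20+ and 16.0 to 21.0% in CD20- libraries (exact permutation test, p = 0.1). Of 8 melanocyte markers only MITF and PMEL reached a mean of 1 FPKM, and SOX10, MLANA and TYR stayed at or below 0.0717, 0.262 and 0.0207 FPKM. PMEL, a melanosome protein, measured 14.8, 29.5 and 33.8 FPKM in CD20+ and 8.73, 19.2 and 16.96 FPKM in CD20- libraries, and limma called it higher with the replicate number as a block (0.75 ± 0.14 on the log2 scale, adjusted p = 0.0117) but not without (adjusted p = 0.613). MITF did not share this rise. It measured 2.21, 2.19 and 1.72 FPKM in CD20+ and 2.07, 2.16 and 2.34 FPKM in CD20- libraries. Its limma change was -0.07 ± 0.14 (adjusted p = 0.905 without the block, 0.827 with it). The 10 B-lineage markers, MS4A1 among them, summed to 5.24 to 5.94 FPKM in CD20+ and 2.76 to 4.60 in CD20- libraries, with BANK1 at 0 throughout. MS4A1 encodes the sorted protein and alone of the 10 did not overlap between the groups, so the gap of the sums includes the sort itself. The 10 fibroblast, endothelial and monocyte markers summed to 1.99 to 2.10 and 1.11 to 1.64 FPKM, with 0 of 10 at a mean of 1 FPKM. The part of the mitochondrial share and of these markers in the member results was not tested.

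Relative to other genes, most expressed ABC transporters were a little more abundant in CD20+ than in CD20- libraries, but no member passed the test without pairing. For several the replicate number held more of the spread than the sort did, as it did for 69.9% of all tested genes. Members were tested where their mean reached 1 FPKM, which 23 of 44 did, with limma on log2(FPKM + 1) across all 13155 genes above that filter and Benjamini-Hochberg adjustment. Changes on this scale understate those of low genes. Of the 23 members, 0 were called at an adjusted p under 0.05, where 0.0076% of all tested genes were, and 1 (ABCD4) had an unadjusted p under 0.05, where 9.2% did. Voom on fragments recovered from the FPKM, without the block, also called 0 members. The change was above 0 in 20 of 23 members, against 50.1% of all tested genes, and its median was 0.28 (range -0.21 to 0.57) against 0.000. The 50.1% and 0.000 of all tested genes may reflect scaling already present in the deposited values, which was not tested. Replicate numbers were taken as pairs, although the values do not settle which libraries of replicates 2 and 3 belong together. In the 3 pairs 12 members were higher and 0 lower, where 21.8% and 20.3% of all tested genes were. The members' median change was 0.11, 0.23 and 0.34 in pairs 1, 2 and 3. With the replicate number as a block, 1 member was called, ABCC3 (higher), where 3.19% of all tested genes were called higher and 2.64% lower. Dividing by the FPKM total of a library, mitochondrial genes included, moved the median of all tested genes to -0.41 and that of the members to -0.19, so the direction of the members holds only relative to other genes. In that scaling with the block 29.8% of all tested genes were called, 0.684% higher and 29.1% lower, and the 1 member called was ABCE1, lower. Without both libraries of replicate 1, ABCC3 and ABCA8 were called higher, where 6.33% of all tested genes were called higher and 7.45% lower.

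Promoter windows are shown for ABCA2, ABCA7 and ABCA5, 3 lipid transporters of subfamily A that were called higher in at least 1 fit with the replicate block. Each runs from 250 bases before to 50 after a RefSeq transcription start (the one nearest the gene's 5′ end), 5′ to 3′ on the gene's strand, in build GRCh38.p14. Capitals mark 4 motifs, each searched on both strands. The GC box, bound by factors of the SP family in many promoters, is read as GGGCGG. The CCAAT box is read by the letters of its name. The E-box, a site of basic helix-loop-helix factors, is read as CACGTG. The antioxidant response core is read as TGACNNNGC.
ABCA2, chr9:137028873-137029172, minus strand: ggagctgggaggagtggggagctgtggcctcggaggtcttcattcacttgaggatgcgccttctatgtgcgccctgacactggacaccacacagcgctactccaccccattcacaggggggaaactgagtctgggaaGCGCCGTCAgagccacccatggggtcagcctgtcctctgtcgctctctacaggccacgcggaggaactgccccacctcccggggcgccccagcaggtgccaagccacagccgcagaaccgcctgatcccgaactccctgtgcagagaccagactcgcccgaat
ABCA7, chr19:1039857-1040156, plus strand: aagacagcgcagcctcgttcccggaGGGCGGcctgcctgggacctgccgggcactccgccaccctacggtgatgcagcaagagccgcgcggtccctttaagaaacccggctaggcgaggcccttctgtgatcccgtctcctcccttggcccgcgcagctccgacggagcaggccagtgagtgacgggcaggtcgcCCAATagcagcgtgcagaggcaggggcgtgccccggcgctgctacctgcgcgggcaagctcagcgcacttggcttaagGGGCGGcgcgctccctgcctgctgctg
ABCA5, chr17:69327084-69327383, minus strand: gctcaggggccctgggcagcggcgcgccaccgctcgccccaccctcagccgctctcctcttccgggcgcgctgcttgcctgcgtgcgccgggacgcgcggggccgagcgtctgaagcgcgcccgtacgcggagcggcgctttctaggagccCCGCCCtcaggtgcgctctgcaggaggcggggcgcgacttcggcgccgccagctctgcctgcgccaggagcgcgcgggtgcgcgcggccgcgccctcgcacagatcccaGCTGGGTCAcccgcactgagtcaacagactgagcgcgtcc
The ABCA7 window held 2 GC boxes and 1 CCAAT box, that of ABCA5 1 GC box and 1 antioxidant core, and that of ABCA2 1 antioxidant core. None of the 3 held an E-box. Windows were found for 35 of the 44 members (53 windows, since some genes have several starts). GC boxes were in 25 of the 53 member windows and 44.95% of all 35116 windows, the antioxidant core in 12 of 53 and 13.4%, the E-box in 9 of 53 and 7.26%, and the CCAAT box in 12 of 53 and 34.6%. The direct repeat of the liver X receptor (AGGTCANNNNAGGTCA) was in 0 of 53 and 0.0199%. The hypoxia response core (ACGTG) was in 14 of 53 member windows and 21.4% of all. The E-box holds this whole core, so the 9 windows with an E-box are among the 14. Windows of tested members had a median G and C content of 65.7% (23 windows), those of members under the filter 51.3% (30 windows), and all windows 58.7%. A match describes letters only and does not show binding.

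Mean levels ran from 0 to 32.3 FPKM. The mean over 6 libraries was at least 10 FPKM for 7 members, 1 to 10 for 16, 0.1 to 1 for 7 and under 0.1 for 14. At the filter, ABCA5 (1.13) and ABCB6 (1.45 FPKM) lay just inside and ABCB9 (0.940) and ABCA1 (0.902 FPKM) just outside. Per length, the most abundant were ABCA2, ABCA3, ABCC2 and ABCA7 (32.3, 28.6, 25.03 and 24.98 FPKM), followed by ABCF3 (14 FPKM). Members above 1 FPKM came from each of the 7 subfamilies. The summed FPKM of the 44 members was 239, 244 and 276 in CD20+ and 202, 220 and 208 in CD20- libraries, groups that did not overlap. The FPKM total of all genes was 512113, 338125 and 398980 in CD20+ and 287617, 295179 and 276912 in CD20- libraries, also without overlap. The members' sums were not divided by it, so they do not show a larger share of the library in CD20+.

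**Figure D1:**
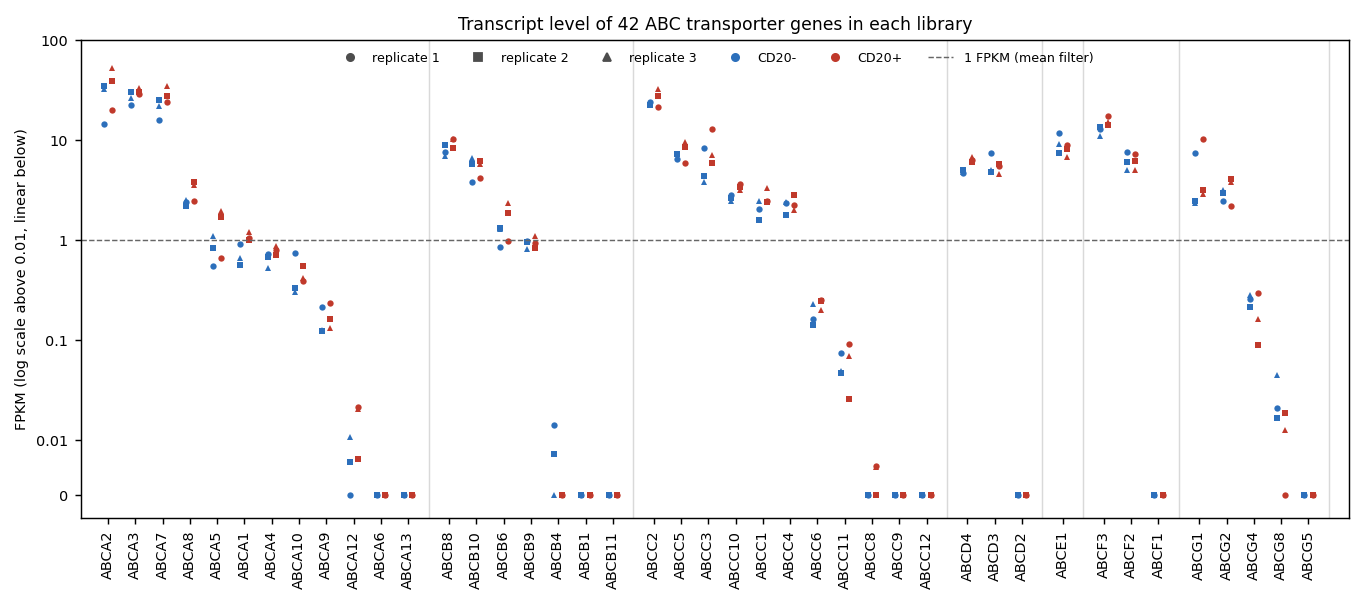
FPKM of 42 of the genes in each of the 6 libraries, grouped by subfamily and ordered by mean, on an axis that is logarithmic above 0.01 and linear below. Points are single libraries, blue CD20-, red CD20+, with symbols for replicates 1 to 3, and the dashed line marks the filter of 1 FPKM. The 2 colours lie close together for most genes, 9 genes sit at 0 in every library, and ABCA2, ABCA3, ABCA7 and ABCC2 stand highest.

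Several well-known drug and bile salt pumps were listed at 0 or close to it. ABCB1, the P-glycoprotein that exports many anticancer drugs (GRCh38 chromosome 7, 87503633 to 87713323), was listed at 0 in each of the 6 libraries. In this table an exact 0 need not mean that a transcript is absent. Genes that most cells use, such as TUBB and ABCF1 on chromosome 6, are also listed at 0. Whether ABCB1, on chromosome 7, is affected was not tested, so no upper limit is given for it or for the other members at 0. Its neighbour ABCB4, a phosphatidylcholine exporter 23197 bases away on the same strand, had 3 fragments in all. The bile salt pump ABCB11, the channel regulator ABCC9, the peroxisomal ABCD2, the sterol transporter ABCG5 and ABCA6, ABCA13 and ABCC12 were also listed at 0 in all libraries. The sulfonylurea receptor ABCC8 had 2 fragments in all and ABCG8, the partner of ABCG5, had 21.

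ABCF1, a translation factor that most cells express, was the ninth member listed at 0, and its neighbourhood was at 0 with it. It lies in the major histocompatibility complex (GRCh38 chromosome 6, 30571376 to 30597179), inside a run of 21 consecutive protein-coding genes at 0 in all libraries (30136108 to 30742733). That run includes TUBB, FLOT1, GNL1 and HLA-E. Between positions 29000000 and 33000000 of the chromosome, 123 of 153 protein-coding genes (80.4%) were at 0, against 20.5% of all protein-coding genes in the table. The peptide transporter genes TAP1 and TAP2, ABC proteins under other symbols that also lie in this complex, were listed at 0 and at no more than 0.0250 FPKM. ABCF1 is given only as listed at 0.

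**Figure D2:**
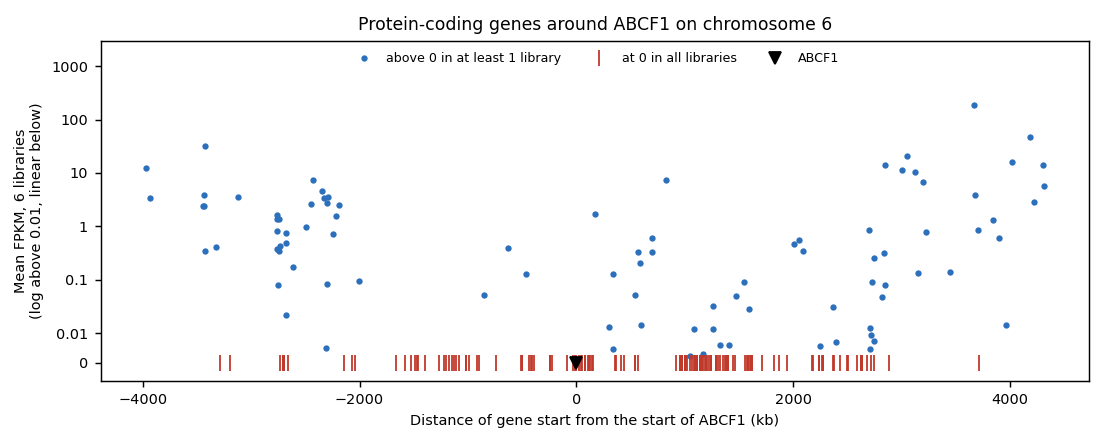
Mean FPKM over 6 libraries of protein-coding genes against the distance of their start from that of ABCF1 in kb, on an axis that is logarithmic above 0.01 and linear below. Red ticks are genes at 0 in all libraries, blue points other genes, and the black triangle ABCF1. The red ticks crowd around ABCF1, which lies in a run of 21 genes at 0.

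Subfamily A held the most abundant lipid transporters, and each of its 5 tested members was higher in the 3 pairs (median change 0.39). ABCA2, a lysosomal and endosomal lipid transporter (GRCh38 chromosome 9, 137007227 to 137028922), measured 20.3, 38.9 and 52.9 FPKM in CD20+ replicates 1, 2 and 3 and 14.4, 34.8 and 32.7 FPKM in CD20- replicates 1, 2 and 3. Replicate 1 was low in both groups and the groups overlapped. Its change was 0.43 ± 0.44 (SE, limma adjusted p = 0.795), and ran from 0.041 without CD20- replicate 1 to 0.81 without CD20+ replicate 1. ABCA7, which moves phospholipids to apolipoproteins at the plasma membrane (chromosome 19, 1040101 to 1065572), measured 24.1, 27.4 and 35.2 FPKM in CD20+ and 16.0, 25.4 and 21.9 FPKM in CD20- libraries, a change of 0.44 ± 0.22 (adjusted p = 0.604). Only the CD20+ library of replicate 1 fell within the CD20- range. In the fit with the replicate block the 2 genes were not called at the filter of 1 FPKM (adjusted p = 0.119 and 0.114). They were called at a filter of 10 FPKM (0.0378 and 0.0283), where 9.93% of all tested genes were called higher and 11.3% lower. At that filter limma took the spread of a typical gene from other genes of like level rather than from its own values.

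ABCA3, which loads lipids into lamellar bodies in the lung (chromosome 16, 2275881 to 2340746), measured 28.7, 30.2 and 33.6 FPKM in CD20+ and 22.5, 30.1 and 26.4 FPKM in CD20- libraries (0.23 ± 0.16, adjusted p = 0.69). The pair of replicate 2 was level, at 0.007. ABCA5 and ABCA8 belong to a cluster of 5 family genes on chromosome 17 (68867292 to 69327244), which differed widely in level: ABCA8 averaged 2.82, ABCA5 1.13, ABCA10 0.453 and ABCA9 0.165 FPKM, and ABCA6 was at 0. ABCA5, a lysosomal transporter, measured 0.664, 1.70 and 1.96 FPKM in CD20+ and 0.546, 0.827 and 1.10 FPKM in CD20- libraries (0.39 ± 0.26, adjusted p = 0.676), low in replicate 1 of both groups. Among the fits run, ABCA5 was called only by voom with the replicate block (0.77 ± 0.19, adjusted p = 0.00202), which called 6.29% of all tested genes higher and 5.05% lower. For a typical gene that fit took the spread mostly from other genes. The same fit also called ABCA7 (adjusted p = 0.0369) and ABCC3 (adjusted p = 0.00155). ABCA8 measured 2.44, 3.82 and 3.57 FPKM against 2.40, 2.21 and 2.50 FPKM (0.33 ± 0.16, adjusted p = 0.605), with replicate 1 level between the groups. ABCA5 and ABCA10 share 318 bases of exon, so their reads may not be separable there. ABCA1, the cholesterol exporter of the subfamily, lay under the filter and is named after its values were seen. It measured 1.06, 1.01 and 1.21 FPKM in CD20+ and 0.909, 0.568 and 0.664 FPKM in CD20- libraries, without overlap (0.29 ± 0.13, adjusted p = 0.797 with no filter).

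Subfamily C, the multidrug resistance proteins, had 6 tested members with changes from 0.08 to 0.57. ABCC3, an exporter of glucuronides and bile salts (GRCh38 chromosome 17, 50634777 to 50692252), measured 13.0, 5.96 and 7.12 FPKM in CD20+ and 8.26, 4.40 and 3.83 FPKM in CD20- libraries. It was higher in each CD20+ library than in its pair, and replicate 1 was high in both groups, so the groups overlapped. Its change was 0.57 ± 0.34 without the block (limma adjusted p = 0.649) and 0.57 ± 0.14 with it (adjusted p = 0.033). Without the block it was 0.27 when CD20+ replicate 1 was left out. ABCC10, an efflux pump with broad drug substrates (chromosome 6, 43427366 to 43450430), measured 3.65, 3.43 and 3.20 FPKM in CD20+ and 2.86, 2.62 and 2.43 FPKM in CD20- libraries, without overlap. Its pairs differed by 0.27, 0.29 and 0.29, the closest agreement between pairs that the plot of paired libraries shows, with a change of 0.29 ± 0.12 (adjusted p = 0.549).

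ABCC2, an apical exporter of conjugates (chromosome 10, 99782640 to 99852594), was the most abundant of the subfamily, at 21.2, 27.5 and 32.1 FPKM in CD20+ and 24.3, 22.3 and 22.7 FPKM in CD20- libraries. It was lower in CD20+ in pair 1 and higher in the other pairs (0.20 ± 0.18, adjusted p = 0.765). ABCC1, which exports glutathione conjugates and drugs, measured 2.48, 2.41 and 3.28 FPKM against 2.02, 1.60 and 2.46 FPKM, higher in the 3 pairs with groups that overlapped (0.30 ± 0.17, adjusted p = 0.633). ABCC5 averaged 8.02 ± 1.83 FPKM in CD20+ and 6.95 ± 0.449 FPKM in CD20- libraries (SD, n = 3), and ABCC4 2.36 ± 0.410 and 2.17 ± 0.355 FPKM, both nucleotide exporters with changes of 0.16 ± 0.18 and 0.08 ± 0.16 (SE). ABCC6 lay 5853 bases from ABCC1 on the other strand at 0.205 FPKM. Its value is uncertain because the near copy ABCC6P1 measured 0.505 FPKM, and reads could be split between them.

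Mitochondrial members take part in heme and iron metabolism. ABCB8, an inner membrane transporter, measured 10.4, 8.35 and 10.2 FPKM against 7.62, 8.84 and 6.87 FPKM (0.28 ± 0.15, adjusted p = 0.628), with replicate 2 in the other direction. ABCB10, linked to heme synthesis, measured 4.15, 6.23 and 5.75 FPKM against 3.79, 5.76 and 6.69 FPKM (0.005 ± 0.22), low in replicate 1 of both groups. ABCB6, a porphyrin transporter of the outer membrane that is also found at other membranes, measured 0.974, 1.87 and 2.37 FPKM against 0.844, 1.31 and 1.30 FPKM (0.32 ± 0.23, adjusted p = 0.707). Of its exon bases 54.7% overlap another annotated gene on the same strand, so its level is uncertain.

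**Figure D3:**
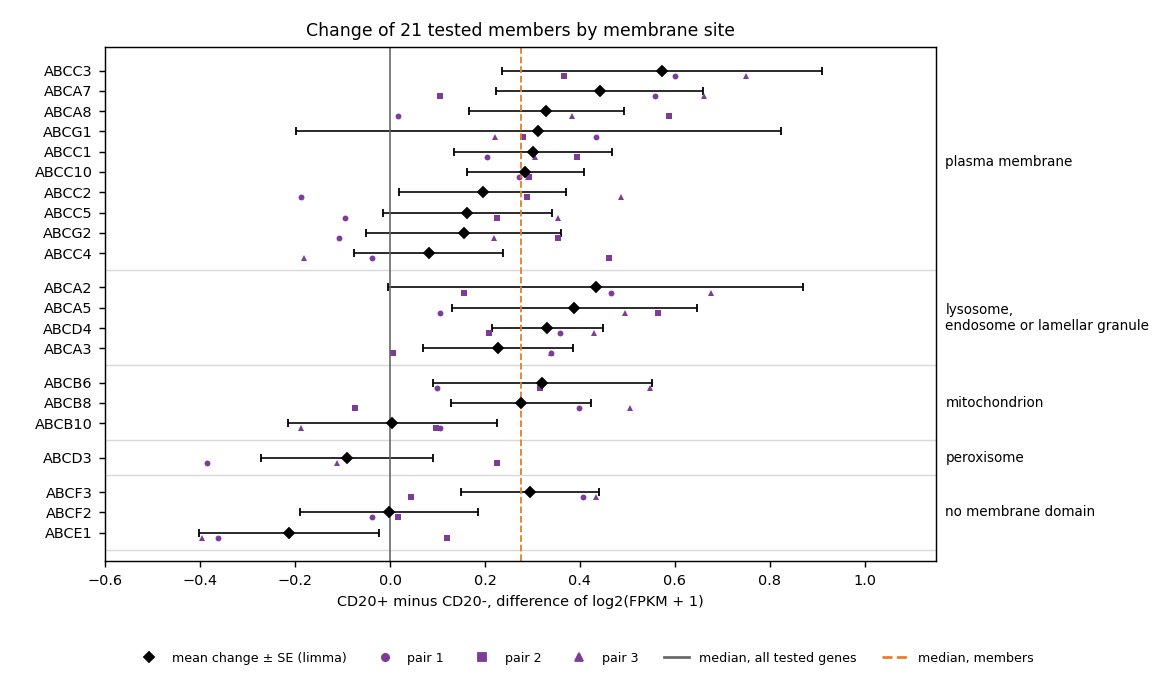
Difference of log2(FPKM + 1) between CD20+ and CD20- for 21 of the 23 tested members, grouped by membrane site. Diamonds are means with SE from limma, purple symbols the 3 pairs, the grey line the median of all tested genes (0.000) and the dashed line that of the 23 members (0.28). Plasma membrane and lysosomal members lie to the right of the grey line, while each of the other sites has members on it or to its left.

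By site, the medians of plasma membrane (10 tested members) and lysosomal, endosomal or lamellar granule members (4 tested) were 0.29 and 0.36, and those of the mitochondrial (4) and soluble members (3) were 0.14 and -0.002. Among plasma membrane members 6 of 10 were higher in the 3 pairs, and among lysosomal members 4 of 4. The difference between sites was not tested. Plasma membrane members summed to 89.3, 90.5 and 104 FPKM in CD20+ and 75.9, 73.9 and 72.1 FPKM in CD20- libraries, without overlap. These sums were not divided by the FPKM total of a library, which was also higher in CD20+ without overlap. As a share of the members' FPKM the plasma membrane group took 37.5% ± 0.356 and 35.3% ± 2.00 (SD, n = 3).

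**Figure D4:**
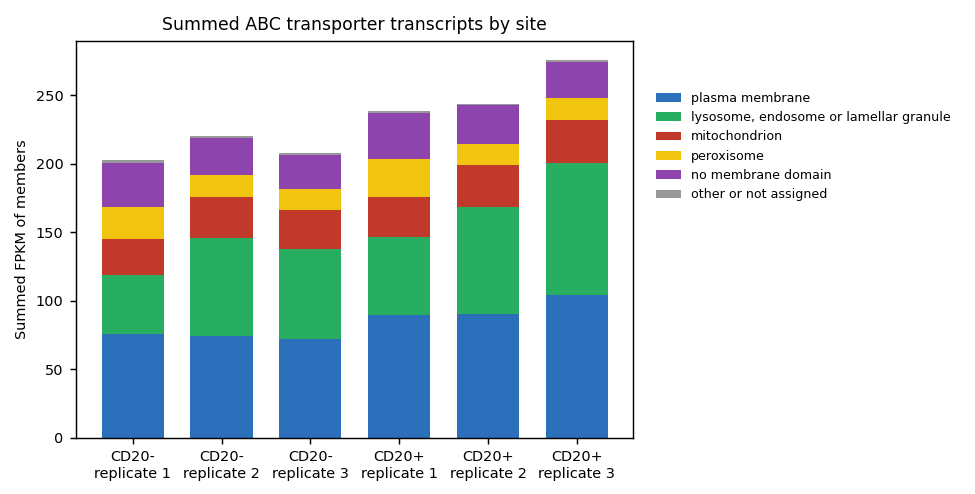
Summed FPKM of the 44 members in each library, stacked by site. The total is 239 to 276 in the 3 CD20+ libraries and 202 to 220 in the 3 CD20- libraries, and the lysosomal block is smallest in replicate 1 of each group. Sums are not divided by the FPKM total of a library, which was also higher in CD20+ without overlap.

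In subfamily D, ABCD4, which with LMBRD1 brings cobalamin out of lysosomes (chromosome 14, 74285423 to 74303056), measured 6.35, 5.996 and 6.80 FPKM in CD20+ and 4.74, 5.06 and 4.80 FPKM in CD20- libraries. The groups did not overlap and its change was 0.33 ± 0.12, the smallest p of the tested members (limma across all tested genes, unadjusted p = 0.0252, adjusted p = 0.485). LMBRD1, chosen after its values were seen, measured 9.40, 9.37 and 9.11 FPKM against 8.64, 6.58 and 8.86 FPKM (adjusted p = 0.707). ABCD3, a peroxisomal importer of fatty and bile acid intermediates, measured 5.47, 5.78 and 4.58 FPKM against 7.45, 4.80 and 5.02 FPKM (-0.09 ± 0.18).

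The soluble members were ABCE1, ABCF2 and ABCF3. ABCF3 (chromosome 3, 184186023 to 184194012) measured 17.3, 14.1 and 15.2 FPKM in CD20+ and 12.8, 13.6 and 11.0 FPKM in CD20- libraries, without overlap (0.30 ± 0.15, adjusted p = 0.6). ABCE1, which splits ribosomes after termination, had the lowest change of the tested members (-0.21 ± 0.19, adjusted p = 0.762), at 8.94, 8.16 and 6.71 FPKM against 11.8, 7.43 and 9.16 FPKM, with replicate 2 in the other direction. ABCF2 measured 7.34, 6.18 and 5.04 FPKM against 7.57, 6.10 and 4.97 FPKM, nearly the same value within each pair and a different one in each replicate (-0.002 ± 0.19). Exons of ABCF2 overlap another gene on the same strand over 45.8% of their length. With ABCC10 and ABCD4, ABCF3 made 3 of 23 tested members that were higher without overlap, against 8.87% of all tested genes, and 0 of 23 were lower without overlap, against 6.14%.

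In subfamily G, ABCG1, which passes cholesterol to high-density lipoprotein (chromosome 21, 42199689 to 42297244), measured 10.3, 3.20 and 2.89 FPKM in CD20+ and 7.40, 2.46 and 2.34 FPKM in CD20- libraries. It was higher in the 3 pairs, but the replicate 1 libraries stood 3.39-fold (CD20+) and 3.09-fold (CD20-) above the mean of the other replicates of their group (change 0.31 ± 0.51, adjusted p = 0.887). ABCG2, the breast cancer resistance protein that marks side-population cells, measured 2.19, 4.06 and 3.84 FPKM against 2.44, 2.96 and 3.16 FPKM (0.16 ± 0.20, adjusted p = 0.85), low in replicate 1. ABCG4 averaged 0.216 FPKM.

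The replicate number accounted for more of the spread than the sort for 15 of the 23 tested members, against 69.9% of all tested genes. Having more levels than the sort, the replicate number tends to hold the larger part even of random variation, with no allowance made here. It held a median of 54.8% of the sum of squares of log2(FPKM + 1), and the sort 24.3%, where all tested genes had 51.7% and 17.4%. For ABCG1, ABCB10 and ABCA2 the replicate number held 94.3, 92.7 and 83.7%, and for ABCF2 99.6%. Replicate 1 was high for ABCG1 and ABCC3 (1.99-fold in CD20+ and 2.01-fold in CD20-), and low for ABCA2 (0.442-fold and 0.426-fold), ABCA5 (0.363-fold and 0.567-fold) and ABCB10 (0.693-fold and 0.609-fold). In contrast the sort held 91.2% for ABCD4, 82.9% for ABCC10 and 60.4% for ABCF3.

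**Figure D5:**
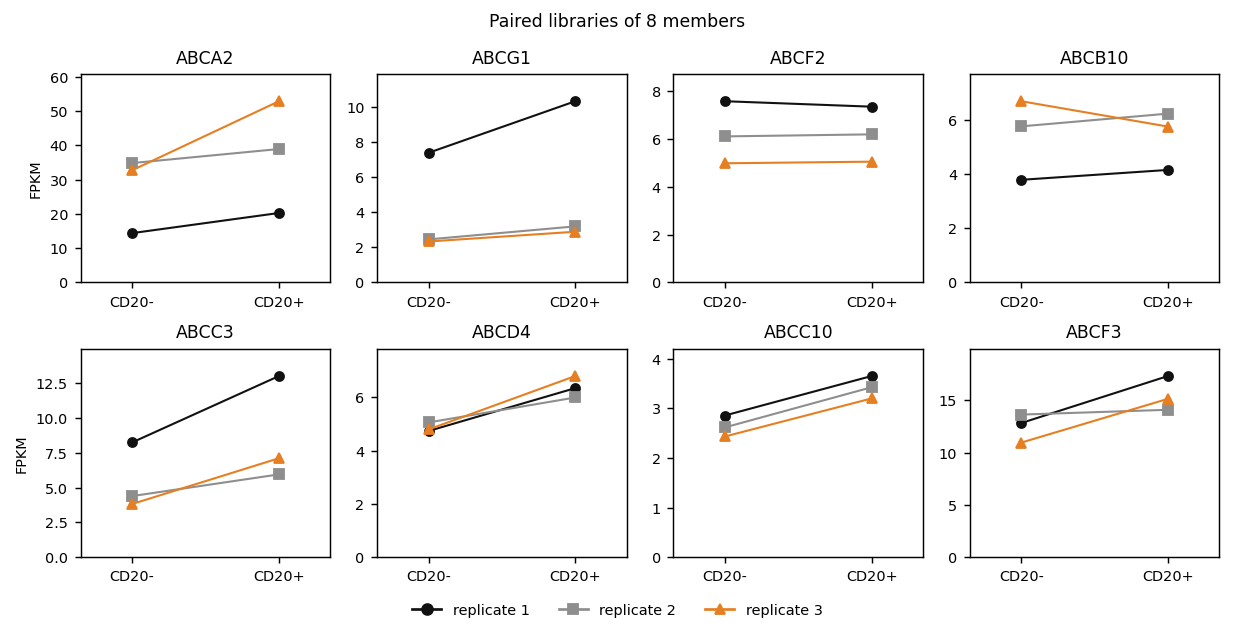
FPKM of 8 members in each CD20- and CD20+ library, with lines joining libraries of the same replicate number and axes that start at 0. ABCA2, ABCG1 and ABCB10 (upper row) and ABCC3 (lower row, left) show replicate 1 apart from the others in both groups, and ABCF2 a level of its own for each replicate, whereas ABCD4, ABCC10 and ABCF3 show the 3 pairs closer together and each CD20+ library above its pair, by little for ABCF3 in replicate 2.

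Members have a long exon length (all annotated exons of a gene merged), and short genes had the lowest median change. The exon length of the tested members had a median of 7804 bases, against 5051 for the 10696 tested protein-coding genes. Over the latter the median change was -0.17 under 2000 bases, and 0.01, 0.03, 0.04 and 0.03 at 4000 to 6000, 6000 to 8000, 8000 to 10000 and over 10000 bases. Members in those last 4 classes had medians of 0.09, 0.21, 0.31 and 0.36 (7, 6, 6 and 4 genes). Among tested protein-coding genes the pairs differed. Genes under 2000 bases had medians of 0.022, -0.28 and -0.25 in pairs 1, 2 and 3. Those over 10000 bases had -0.069, 0.15 and 0.021, so pair 1 ran the other way. The part of length in the members' values was not tested.

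Genes that work with ABC transporters were read from 8 lists, 1 of them the ABC genes under other symbols. Without the block, 0 genes were called in any list. Of all tested genes 50.1% had a change above 0 and 9.2% an unadjusted p under 0.05 in limma without the block. With the block 3.19% were called higher and 2.64% lower. Cholesterol handling genes had 11 of 13 tested genes above 0, a median of 0.32 and 5 genes with an unadjusted p under 0.05. With the block 2 of them were called, both higher. APOE, the lipoprotein that accepts cholesterol, measured 49.8, 55.3 and 69.7 FPKM in CD20+ and 17.9, 34.4 and 28.9 FPKM in CD20- libraries, without overlap (1.11 ± 0.17 with the block, adjusted p = 0.00572, and 0.293 without). LRP1, a receptor for such particles, measured 13.0, 17.6 and 24.1 FPKM against 6.34, 8.78 and 10.7 FPKM (0.99 ± 0.13 with the block, adjusted p = 0.00303, and 0.349 without). NPC1, which exports cholesterol from lysosomes, was at 6.95, 8.42 and 8.65 FPKM against 5.82, 5.82 and 5.58 FPKM. Limma on log2(FPKM + 1) did not call NPC1 (adjusted p = 0.0972 with the block, 0.427 without), but voom with the block did (adjusted p = 0.0341). NPC2, of the same list and chosen after its values were seen, went the other way without overlap. It measured 60.8, 61.3 and 54.7 FPKM in CD20+ and 70.7, 69.1 and 67.6 FPKM in CD20- libraries (limma without the block, -0.23 ± 0.14, adjusted p = 0.658).

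Regulators of transporter genes had 6 of 11 above 0 and a median of 0.04. SREBF1, a lipid synthesis factor, was called with the block (62.7, 48.4 and 64.7 FPKM against 35.1, 41.0 and 34.1 FPKM, 0.65 ± 0.17, adjusted p = 0.0437, and 0.349 without). The liver X receptors NR1H2 and NR1H3, which control ABCA1 and ABCG1, had differences of 0.17 ± 0.17 and 0.10 ± 0.15 and were not called. Iron-sulfur and heme genes, the pathways served by mitochondrial members, had 8 of 25 above 0 and a median of -0.17. GLRX5 and BOLA3, which carry and deliver clusters, were called lower with the block (-0.72 ± 0.18, adjusted p = 0.0431, and -0.75 ± 0.13, adjusted p = 0.00996; 0.52 and 0.564 without). Ribosome recycling and initiation partners of ABCE1 had 2 of 14 above 0 (median -0.29) and peroxisome genes 11 of 23 (median -0.06). Glutathione genes had 4 of 17 above 0 (median -0.10) and protein partners of single members 5 of 9 (median 0.13). In these last 4 lists 0 genes were called by limma on log2(FPKM + 1) with the block at the filter of 1 FPKM. Of all tested genes 5.83% were called in that fit. CFTR, the third ABC gene under another symbol, was at 0.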

How the data were processed

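The authors deposited 1 table with a value for each of 58395 Ensembl genes in 6 libraries (3 CD20+, 3 CD20-). Its header names no unit. The deposited values were taken as FPKM, because value times GENCODE release 29 exon length was a whole multiple of 1 step per library for 98.1 to 98.6% of low values (under 20 fragments, tolerance 0.02). Fragments were recovered from that step. The tools named per the submitters' processing notes are HISAT2, DESeq2 and featureCounts 1.5.0, with build GRCh38. Their settings, strand included, were not given in the sources used here. GENCODE 29 held 58275 of the identifiers.

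Genes whose mean reached 1 FPKM were tested on log2(FPKM + 1) with limma 3.58.1 (trend, robust) in R 4.3.3, CD20+ minus CD20-, Benjamini-Hochberg threshold 0.05, without a block. The script was tested on simulated data. Deviations from the group mean correlated at 0.675, 0.238 and 0.509 between same-numbered libraries, each over 0.1, so the labels' numbers were taken as pairs. CD20- replicate 2 correlated at 0.426 with CD20+ replicate 3 and CD20- replicate 3 at 0.396 with CD20+ replicate 2. These values set replicate 1 apart and do not settle which libraries of the other 2 replicates belong together.

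Members, lists and tests were chosen with earlier results of these data known. Libraries' values were printed for members with a mean of at least 10 FPKM, a call with or without the block, or groups without overlap at 1 FPKM or more, and for the top member of each subfamily and site. Other members, and related genes beyond the 3 with the smallest p in a list, were chosen after their values were seen. Some members enter the counts and medians but are not reported here. Sites were assigned from general knowledge. Promoters are from RefSeq (GRCh38.p14). Alternatives covered pseudocount, filter, scaling, block, voom and left-out libraries. The depth limits genes near 0 most.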

Additional observations from a re-analysis of the deposited data

How the results depend on the processing

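The count of members called was 0 and moved to 1 with the replicate block (ABCC3), 2 with the block at a filter of 10 FPKM (ABCA2 and ABCA7), 1 with the block and the FPKM total (ABCE1, lower) and 3 with voom and the block. Leaving out libraries gave 0 to 2 members, the 2 (ABCC3 and ABCA8) without both libraries of replicate 1. The count of all genes called, 1, moved to 2 (pseudocount 5), 0 (no filter, and voom), 9 (quantile), 1382 (FPKM total), 767 (block), 954 (block, filter of 10), 3923 (block, FPKM total), 1491 (voom, block) and 0 to 1813 with libraries left out, among them 322 without CD20+ replicate 1 and 1813 without replicate 1. Genes called in the related lists moved from 0 to 20 (FPKM total), 5 (block), 9 (block, filter of 10), 49 (block, FPKM total), 13 (voom, block) and 0 to 18 with libraries left out. Settings with the FPKM total, with or without the block, gave medians of -0.19 for all members, -0.11 for plasma membrane, -0.085 for lysosomal, -0.31 for mitochondrial and -0.45 for soluble members, beside -0.41 for all genes. They turned 15 reported members: ABCA2 (-0.064), ABCA3 (-0.27), ABCA7 (-0.054), ABCA8 (-0.038), ABCB8 (-0.19), ABCB10 (-0.42), ABCC1 (-0.058), ABCC2 (-0.30), ABCC4 (-0.27), ABCC5 (-0.29), ABCC10 (-0.10), ABCD4 (-0.11), ABCF3 (-0.19), ABCG1 (-0.11) and ABCG2 (-0.22). Without mitochondrially encoded genes in the total, medians were 0.24 (mitochondrial) and 0.088 (soluble), and ABCF2 turned to 0.088. ABCB10 turned to -0.002 with median ratio and -0.008 with quantile scaling. A pseudocount of 5 gave medians of 0.14 (all), 0.20 (lysosomal), 0.065 (mitochondrial) and 0.15 (plasma membrane). A filter of 10 FPKM, with or without the block, gave 0.30 for soluble members, since it leaves fewer of them. Leaving out libraries gave medians of 0.17 (without CD20+ replicate 3) to 0.29 for all members, 0.19 (without CD20- replicate 2) to 0.34 for plasma membrane, 0.20 (without CD20+ replicate 3 or CD20- replicate 1) to 0.49 for lysosomal, 0.10 to 0.21 for mitochondrial and -0.13 to 0.13 for soluble members, and changes of -0.19 to 0.15 for ABCB10, -0.11 to 0.21 for ABCC4, -0.25 to 0.081 for ABCD3, -0.13 to 0.13 for ABCF2 and -0.18 to 0.75 for ABCG1 (-0.18 without CD20+ replicate 1). No other reported member changed direction with libraries left out, but only ABCC10 (0.24 to 0.33), ABCD4 (0.28 to 0.39) and ABCF3 (0.21 to 0.42) stayed within 1.5 times their value. ABCA2 ran from 0.041 to 0.81, ABCC3 from 0.27 to 0.86, ABCC2 from 0.050 to 0.39, ABCC5 from 0.042 to 0.34, ABCG2 from 0.034 to 0.37, ABCB6 from 0.15 to 0.54 and ABCE1 from -0.38 to -0.058. Ranges of ABCA3, ABCA5, ABCA7, ABCA8, ABCB8 and ABCC1 lay between 0.12 and 0.64. The ratio of MS4A1 stayed between 3.49 and 4.76 with 1 library left out. Why these values moved, other than with the filter of 10 FPKM, was not tested. In limma on unscaled log2(FPKM + 1) at the filter of 1 FPKM, pairing by replicate number changed the calls of ABCC3, APOE, LRP1, SREBF1, GLRX5, BOLA3 and PMEL. In that fit it changed the call of no other reported member or listed gene.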
